A study of Homo sapiens with 12 samples.

Results

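The comparison set HCT116 against DLD1, lines derived from different patients' colorectal carcinomas, in cells that no longer carried the activating mutation of a PI3K catalytic subunit. Its members were chosen by their labels as the 3 arrays of HCT116 and the 3 arrays of DLD1 that kept the wild-type allele alone, 6 of the 12 arrays of the series, and it was read over all 18377 genes with 1 transcript cluster each. The parental lines each carry an activating mutation in 1 allele of that subunit, at different positions, and 1 allele had been removed by gene targeting. HCT116 wild-type-only cells lacked the H1047R mutant allele of HCT116, and DLD1 wild-type-only cells lacked the E545K mutant allele of DLD1. The other 6 arrays came from mutant-only derivatives of the same lines, 3 for each line, which kept those mutant alleles alone. All cells were held in McCoy's medium with 0.5% serum for 19 h, and 500 ng of total RNA per sample was labelled for Affymetrix HuGene arrays. The labels describe each group as 1 derived cell line with 3 biological replicates, so a property of the line and a property of the derived line cannot be told apart, and each p-value measures the spread between samples of those derived lines. No group grown in full serum was analysed here, so nothing here separates a response to low serum from a standing difference between the lines.

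Tumour cell lines of the colon keep parts of the programme of the crypt, in which WNT-driven stem cells at the base give rise to absorptive enterocytes and mucus-secreting goblet cells. CDX and HNF4 transcription factors maintain that identity, E-cadherin junctions hold the sheet together, and TGF-beta and YAP signals control spreading, repair and matrix. HCT116 and DLD1 are both mismatch-repair-deficient and both carry mutations that activate WNT signalling and RAS, which makes them a common pair of models for colorectal carcinoma.

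Values are the authors' log2 expression values, and a difference is HCT116 minus DLD1, so a positive one means higher in HCT116. Median values over all clusters lay between 7.44 and 7.53 on the 6 arrays, and the median difference over genes was 0.0039. Arrays of one group correlated by 0.9952 to 0.9981 across clusters, and arrays of different lines by 0.9539 to 0.9611. Of the 12 markers of colorectal epithelium, the adhesion molecule EPCAM and the keratins KRT8 and KRT18 were among those above the 90th percentile of gene levels in both lines. EPCAM had a mean of 12.34 ± 0.09 in HCT116 and 12.57 ± 0.13 in DLD1 (SD, n = 3 in each group, as for all means that follow). KRT8 had 12.95 ± 0.04 in HCT116 and 13.50 ± 0.03 in DLD1, and KRT18 had 12.58 ± 0.07 in HCT116 and 13.30 ± 0.04 in DLD1. The level of 6 of the 12 markers in HCT116 and of 5 in DLD1 was below the median gene level. The intestinal genes CDX1, GPA33, LGALS4 and CEACAM5 were among these in both lines. CDX2, CDH17 and CDH1, which differed by at least 2-fold between the lines, are described with their groups. Of the markers of other tissues all but the fibroblast collagen COL1A1 lay below the median gene level in both lines. The 5 measured blood markers had mean levels of 5.01 to 6.90 in HCT116 and 5.03 to 7.07 in DLD1, and the 4 endothelial markers 5.71 to 6.70 and 5.64 to 6.84. The 6 fibroblast markers ranged from 4.93 to 8.76 in HCT116 and from 4.95 to 8.38 in DLD1, and the highest was COL1A1 in both, above the median gene levels of 8.10 and 8.08. For scale, the 10th and 90th percentiles of gene levels were 5.71 and 10.55 in HCT116 and 5.70 and 10.64 in DLD1.

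Differences between the lines were widespread and mostly small. With limma and Benjamini-Hochberg adjustment over all genes, 8962 genes (48.8% of those tested) passed an adjusted p of 0.05, and the median size of their difference was 0.45. Of these, 4282 were higher in HCT116 (23.3%) and 4680 in DLD1 (25.5%). At least a 2-fold difference was found for 1477 genes (8.04%), 685 higher in HCT116 (3.73%) and 792 higher in DLD1 (4.31%). The arrays of the lines did not overlap for 10066 genes (54.8%). Large differences were about equally divided: 187 genes were at least 4-fold higher in HCT116 and 181 in DLD1, 67 and 69 at least 8-fold, and 25 and 25 at least 16-fold. In both directions together these were 2.0%, 0.74% and 0.272% of all genes, and the 19 at least 32-fold apart, 13 higher in HCT116 and 6 in DLD1, were 0.103%. These are folds between summarised array signals, and a gene near the floor of the array in one line can differ by more in RNA.

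**Figure D1:**
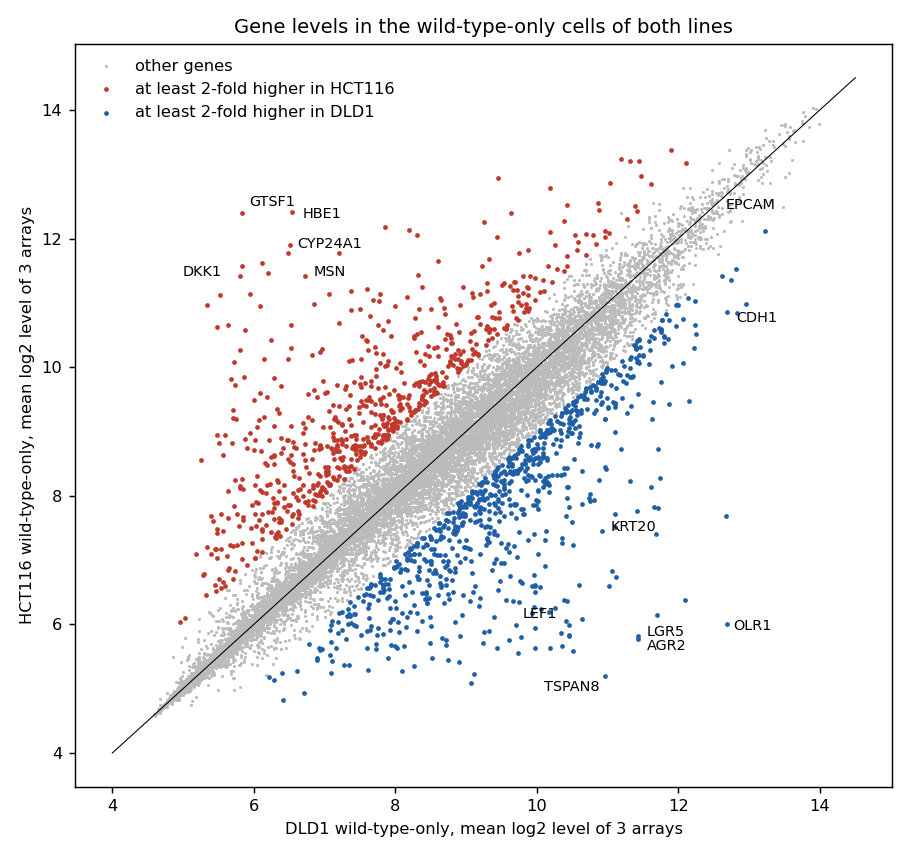
Mean log2 level of every gene in wild-type-only HCT116 (vertical axis, 3 arrays) against wild-type-only DLD1 (horizontal axis, 3 arrays), 1 point per gene, with the line of equality. Coloured points passed an adjusted p of 0.05 with at least a 2-fold difference, 685 higher in HCT116 and 792 higher in DLD1, and the labelled genes include GTSF1, HBE1 and DKK1 on one side and OLR1, LGR5 and AGR2 on the other.

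The genes furthest above DLD1 in HCT116 mixed germline, blood, signalling and metabolic products. GTSF1, a factor of the piRNA pathway in germ cells, had log2 levels of 12.44, 12.43 and 12.31 in HCT116 and 6.11, 5.72 and 5.68 in DLD1 (transcript cluster 7963817). It was 94.3-fold higher in HCT116 (log2 difference 6.56, SE 0.0976, limma adjusted p = 4.78e-15), the largest difference in this direction among all genes. HBE1, the embryonic beta-like globin, read 12.44, 12.32 and 12.48 in HCT116 and 6.84, 6.03 and 6.76 in DLD1, a 58.6-fold difference (SE 0.155 on the log2 scale, limma adjusted p = 1.44e-12). In both genes every HCT116 array lay near 12 and every DLD1 array under 7, so the groups were far apart relative to their spread. DKK1, a secreted inhibitor of WNT receptors and itself a WNT target, read 11.29, 11.35 and 11.61 in HCT116 and 5.83, 5.64 and 5.94 in DLD1. CD109, a cell-surface protein that binds TGF-beta, read 11.03, 10.95 and 10.89 in HCT116 and 5.33, 5.30 and 5.38 in DLD1. OSMR, the receptor subunit for oncostatin M, read 10.59, 10.62 and 10.66 in HCT116 and 5.54, 5.43 and 5.48 in DLD1. None of these 3 genes overlapped between the lines, and they were 48.9-, 49.1- and 35.2-fold higher in HCT116.

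Other leading genes of HCT116 had known roles in lipids, vitamin D and membrane traffic. ELOVL5, an elongase of polyunsaturated fatty acids, was 45.2-fold higher, with 11.62 ± 0.05 in HCT116 and 6.12 ± 0.12 in DLD1. CYP24A1, the enzyme that inactivates vitamin D hormone, read 11.77, 11.66 and 11.88 in HCT116 and 6.55, 6.48 and 6.40 in DLD1, 39.3-fold higher in HCT116. Both lay below the median gene level of 8.08 on every DLD1 array. ANO6, a phospholipid scramblase, RAB31, a small GTPase of vesicle traffic, and SYT1, the calcium sensor of synaptic vesicles, were 48.4-, 41.8- and 36.5-fold higher. KRT23, an acidic keratin, read 11.63, 11.32 and 11.42 in HCT116 and 6.37, 6.08 and 6.16 in DLD1, a 38.1-fold difference. BNIP3, a mitophagy receptor and hypoxia target, read 10.93, 10.98 and 10.94 in HCT116 and 6.21, 6.07 and 5.99 in DLD1 and was 29.1-fold higher. MAGEB2, a cancer-testis antigen, and RTL8C, a retrotransposon-derived gene with close copies that its probes may share, were 32.8- and 26.0-fold higher. All 15 leading genes of HCT116 passed the test with 3 HCT116 arrays above all 3 DLD1 arrays, which is how they were chosen.

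The genes furthest above HCT116 in DLD1 were led by surface and secretory proteins, several of them of epithelium. OLR1, a scavenger receptor for oxidised LDL, read 6.14, 5.91 and 5.94 in HCT116 and 12.64, 12.80 and 12.59 in DLD1 (transcript cluster 7961142). Its 103-fold difference (log2 difference -6.68, SE 0.076, limma adjusted p = 5.72e-16) was the largest of the whole comparison. TSPAN8, a tetraspanin of intestinal epithelium, read 5.16, 5.35 and 5.05 in HCT116 and 11, 11.09 and 10.82 in DLD1. On every HCT116 array both genes were at or under 6.14, and on every DLD1 array both exceeded the 90th percentile of gene levels. AGR2, a disulphide isomerase that folds mucins in the endoplasmic reticulum, read 5.86, 5.76 and 5.68 in HCT116 and 11.55, 11.45 and 11.30 in DLD1. LGR5, the R-spondin receptor that marks crypt base stem cells, read 5.81, 5.56 and 6.10 in HCT116 and 11.49, 11.61 and 11.18 in DLD1. CDH17, the liver-intestine cadherin, read 5.77, 5.53 and 5.48 in HCT116 and 10.51, 10.50 and 10.51 in DLD1. For these 3 epithelial genes the DLD1 arrays were all above 10 and the HCT116 arrays all below 6.5, and the folds were 50.8, 48.6 and 30.2.

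TM4SF1, a surface protein related to tetraspanins, was 52.3-fold higher in DLD1, with 6.38 ± 0.14 in HCT116 and 12.09 ± 0.05 in DLD1. KIT, the receptor tyrosine kinase for stem cell factor, read 6.06, 5.75 and 5.78 in HCT116 and 10.41, 10.16 and 10.43 in DLD1, a 22.2-fold difference. LEF1, a transcription factor that partners beta-catenin, read 5.90, 5.93 and 6.15 in HCT116 and 10.41, 10.43 and 10.54 in DLD1, a 22.1-fold difference. In KIT and LEF1 the HCT116 arrays stayed between 5.75 and 6.15 while every DLD1 array exceeded 10. Metabolic enzymes among the leading genes of DLD1 were HPGD, which inactivates prostaglandins, NNT, the mitochondrial transhydrogenase that makes NADPH, and GALC, the lysosomal galactosylceramidase, at 23.6-, 24.5- and 25.0-fold. QPCT, a glutaminyl cyclase, PRTFDC1, a phosphoribosyltransferase relative, and TMEM52B were 23.3-, 26.1- and 47.2-fold higher. The histone gene H3C11 was 31.6-fold higher in DLD1, with the reservation that H3 genes are near-identical and its probes may read several of them.

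**Figure D2:**
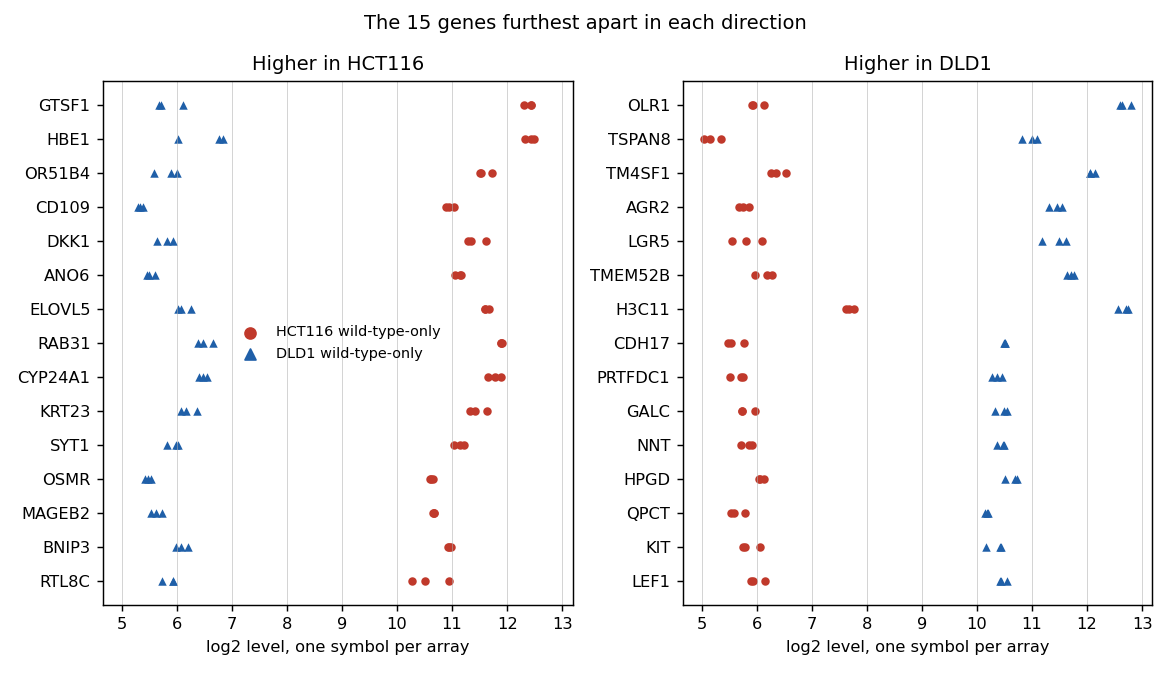
Log2 level of the 15 genes furthest apart in each direction on each of the 6 wild-type-only arrays, 1 point per array. The 3 arrays of a line lie close together for each gene and the lines do not overlap, which is part of how the genes were chosen.

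The start regions of these genes showed no single base composition, so the ones at either end are printed together with those of the WNT list members DKK1 and LEF1. Windows of 250 bases before to 50 after the start were taken from RefSeq on GRCh38.p14 and were found for 14208 of the 18377 genes. Capitals mark CpG dinucleotides, whose density separates CpG island promoters from others. Among the leading genes of HCT116 with a window, ANO6 had the fewest CpGs and RAB31 the most, and among those of DLD1 TSPAN8 had the fewest and PRTFDC1 the most. The windows of ANO6 (chr12:45292440-45292739, plus strand, 2 CpGs), RAB31 (chr18:9708051-9708350, plus strand, 52), TSPAN8 (chr12:71157950-71158249, minus strand, 1), PRTFDC1 (chr10:24952557-24952856, minus strand, 40), DKK1 (chr10:52314031-52314330, plus strand, 20) and LEF1 (chr4:108166252-108166551, minus strand, 9) read 5′ to 3′ as follows.
ANO6: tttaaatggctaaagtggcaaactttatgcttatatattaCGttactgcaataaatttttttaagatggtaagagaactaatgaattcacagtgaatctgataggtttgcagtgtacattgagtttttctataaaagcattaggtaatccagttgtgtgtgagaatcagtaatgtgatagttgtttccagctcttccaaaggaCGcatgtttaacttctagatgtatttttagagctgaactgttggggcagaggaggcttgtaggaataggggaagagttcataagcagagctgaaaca
RAB31: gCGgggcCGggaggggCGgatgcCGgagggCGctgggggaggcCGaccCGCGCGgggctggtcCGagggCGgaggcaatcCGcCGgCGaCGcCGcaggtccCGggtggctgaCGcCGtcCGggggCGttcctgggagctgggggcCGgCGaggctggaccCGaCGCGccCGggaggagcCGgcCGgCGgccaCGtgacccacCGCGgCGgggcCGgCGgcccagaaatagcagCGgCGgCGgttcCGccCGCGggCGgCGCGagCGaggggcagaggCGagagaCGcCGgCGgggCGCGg
TSPAN8: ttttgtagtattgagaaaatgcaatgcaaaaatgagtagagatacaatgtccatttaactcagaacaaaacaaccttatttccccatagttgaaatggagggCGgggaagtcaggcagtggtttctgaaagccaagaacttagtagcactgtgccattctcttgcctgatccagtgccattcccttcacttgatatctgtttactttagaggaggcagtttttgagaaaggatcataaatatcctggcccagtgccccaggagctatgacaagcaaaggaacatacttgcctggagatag
PRTFDC1: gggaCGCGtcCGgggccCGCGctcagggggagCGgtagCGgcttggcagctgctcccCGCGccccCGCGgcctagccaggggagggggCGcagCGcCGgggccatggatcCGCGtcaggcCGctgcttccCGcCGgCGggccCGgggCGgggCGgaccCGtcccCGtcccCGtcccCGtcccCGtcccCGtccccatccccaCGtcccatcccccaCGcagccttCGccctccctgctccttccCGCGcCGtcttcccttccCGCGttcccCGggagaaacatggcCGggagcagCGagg
DKK1: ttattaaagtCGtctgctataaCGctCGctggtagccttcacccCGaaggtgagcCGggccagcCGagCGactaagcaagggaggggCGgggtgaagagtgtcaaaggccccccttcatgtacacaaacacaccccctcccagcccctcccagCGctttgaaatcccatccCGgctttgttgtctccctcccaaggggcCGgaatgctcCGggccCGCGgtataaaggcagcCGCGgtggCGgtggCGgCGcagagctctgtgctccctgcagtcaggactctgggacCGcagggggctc
LEF1: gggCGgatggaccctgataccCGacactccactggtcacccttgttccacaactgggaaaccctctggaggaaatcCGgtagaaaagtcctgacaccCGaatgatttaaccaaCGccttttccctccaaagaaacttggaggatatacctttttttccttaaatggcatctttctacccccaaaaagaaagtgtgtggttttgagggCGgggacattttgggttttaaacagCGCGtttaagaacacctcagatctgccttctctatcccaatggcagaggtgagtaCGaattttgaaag

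Over all genes with a window the median was 23 CpGs, with quartiles of 9 and 32. Among genes with a window, the 48 at least 8-fold higher in HCT116 had a median of 20. The 53 at least 8-fold higher in DLD1 had a median of 19. Windows with under 5 CpGs made up 15.7% of all genes, 18.8% of the former and 18.9% of the latter, so ANO6 and TSPAN8 stood with a minority of each group. In the larger groups at least 2-fold apart, 521 and 663 genes with a window, the shares were lower than over all genes. They were 8.45% for HCT116 and 11.3% for DLD1. The letters TATAAA, searched on both strands, were in 8.96% of all windows, in 10 of the 48 (20.8%) and in 6 of the 53 (11.3%), but in 8.06% and 8.14% of the groups at least 2-fold apart. The DKK1 window holds them a short way before the start. The TCF and LEF letters ATCAAAG, on both strands, were in 2.01% of all windows. They were in 1 of the 23 WNT target and stem cell genes with a window (4.35%). These counts describe the windows only, and no test was made of them.

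Some of the large differences lay next to each other in the genome. OLR1 and TMEM52B, both among the leading genes of DLD1, are neighbours on chromosome 12, and only runs of 4 or more were counted. There were 3 runs of 4 neighbouring measured genes that all passed the test with at least a 2-fold difference in the same direction. On chromosome 11, HBE1 was followed by the olfactory receptor genes OR51B4, OR51B2 and OR51B5, at 5.75, 3.55 and 3.35 log2 units above DLD1. OR51B4 read 11.53, 11.72 and 11.50 in HCT116 and 6, 5.59 and 5.90 in DLD1, with no overlap between the lines. HBD, the delta globin gene on the other side of HBE1, read 6.49 ± 0.04 in HCT116 and 6.37 ± 0.03 in DLD1 and did not pass (limma adjusted p = 0.0852). On chromosome 3, GPR15, CPOX, ST3GAL6 and DCBLD2 were higher in HCT116 by 3.64, 1.25, 3.13 and 1.82. On chromosome 12 the zinc finger genes ZNF26, ZNF84, ZNF140 and ZNF10 were higher in DLD1, with differences of -1.10, -1.14, -3.31 and -1.14. Receptor and zinc finger genes of such clusters resemble each other, and shared probes may link their values. Whole chromosomes differed less: median differences lay within 0.043 of 0. Chromosome 8 had 32.4% of its genes higher in HCT116 and 18.8% higher in DLD1, chromosome 2 had 19.1% and 34.0%, against 23.3% and 25.5% of all genes, and DNA copy number was not measured here.

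**Figure D3:**
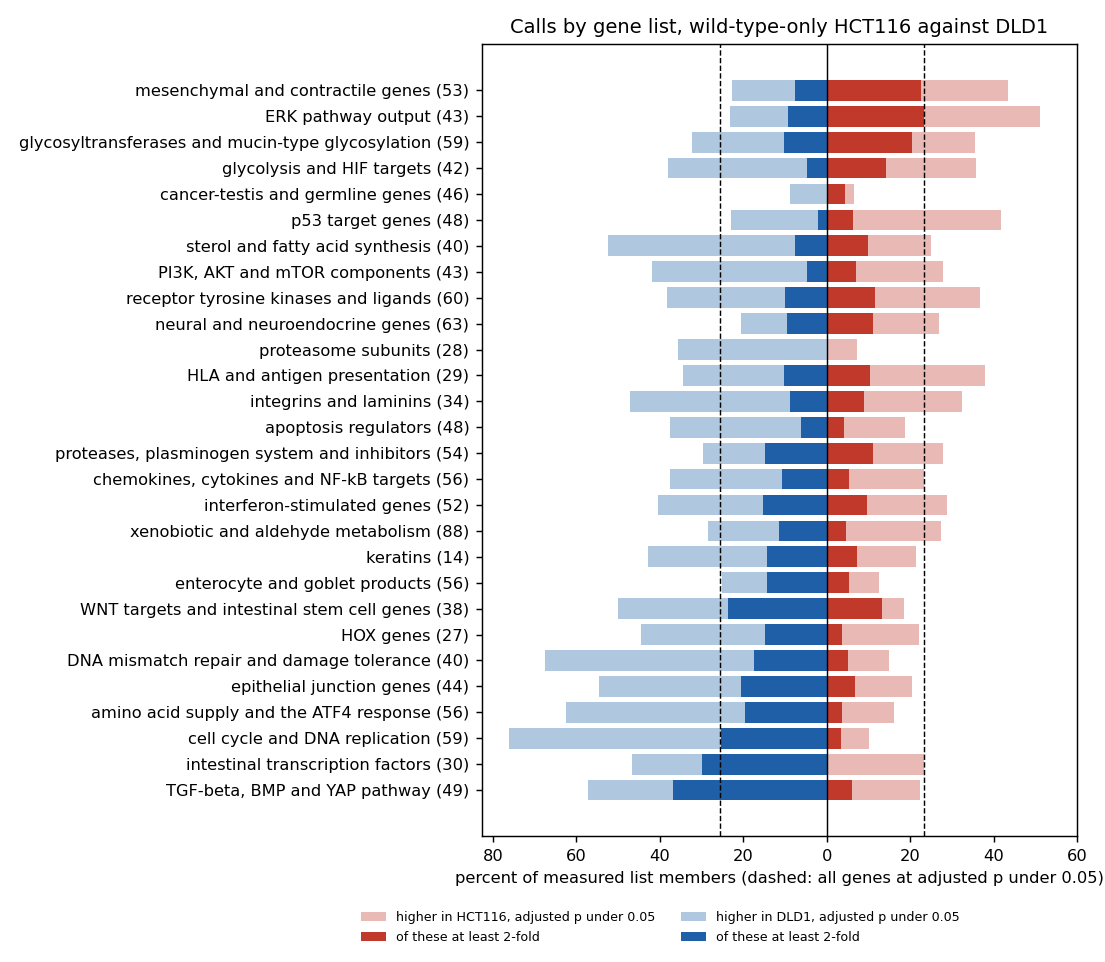
Percentage of each list's measured members that were higher in DLD1 (to the left) or in HCT116 (to the right) at an adjusted p of 0.05, darker where the difference was at least 2-fold. Dashed lines give the same for all genes, 25.5% and 23.3%, and the cell cycle list, with 45 of 59 members higher in DLD1, reaches furthest to the left.

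Intestinal transcription factors were unequal in one direction when differences were large. Of 30 measured, 14 were higher in DLD1 and 7 in HCT116, against 25.5% and 23.3% of all genes, and 9 did not pass. At least 2-fold higher were 9 in DLD1 and 0 in HCT116, against 4.31% and 3.73% of all genes. The list median was -0.11, and -1.10 when dim genes, those under the 40th percentile of mean level over all arrays, were left out. FOXA1, a pioneer factor of endodermal epithelium, read 8.16, 8.13 and 8.13 in HCT116 and 11.44, 11.54 and 11.83 in DLD1, an 11-fold difference. EHF, an epithelial ETS factor, and VDR, the vitamin D receptor, were 10.4- and 3.99-fold higher in DLD1. ASCL2, a master factor of crypt stem cells, was 3.18-fold higher there. CDX2, the homeobox factor of intestinal identity, read 8.80, 8.78 and 8.77 in HCT116 and 10.36, 10.35 and 10.28 in DLD1, 2.92-fold higher in DLD1, while its paralogue CDX1 read 7.84 ± 0.04 in HCT116 and 7.78 ± 0.05 in DLD1 and did not pass. HNF4G, NR5A2 and ELF3 led the other direction at no more than 1.89-fold.

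Most products of differentiated enterocytes and goblet cells did not pass the test, and the large differences were more often towards DLD1. Of 56 measured, 14 were higher in DLD1, 7 in HCT116 and 35 did not pass. The share higher in DLD1 was near the 25.5% of all genes, and that higher in HCT116 was below their 23.3%. At least 2-fold apart were 8 and 3, against 4.31% and 3.73%. The median was -0.04, or -0.51 with dim genes left out. Beside TSPAN8, AGR2 and CDH17, the terminal differentiation keratin KRT20 read 7.41, 7.50 and 7.47 in HCT116 and 10.93, 10.98 and 10.86 in DLD1, an 11-fold difference. The microvillar and surface genes LGALS4 (7.46 ± 0.07 in HCT116 and 7.60 ± 0.12 in DLD1), GPA33 (6.68 ± 0.01 in HCT116 and 6.69 ± 0.12 in DLD1) and CEACAM5 (6.01 ± 0.09 in HCT116 and 6.13 ± 0.07 in DLD1) did not pass, and their arrays overlapped between the lines. Higher in HCT116 were CKB, brain-type creatine kinase, at 8.72-fold, the Usher protein USH1C of microvilli at 2.72-fold and the mucin MUC12 at 2.56-fold, and the other clusters of MUC12 differed by 0.91 and 0.00. In these bulk extracts fewer cells making a product and less RNA per cell cannot be told apart.

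WNT target and stem cell genes were more often higher in DLD1, with large differences in both directions. Of 38 measured, 19 were higher in DLD1 and 7 in HCT116, against 25.5% and 23.3% of all genes. At least 2-fold apart were 9 and 5, against 4.31% and 3.73%, and the median was -0.22, or -0.62 with dim genes left out. With LGR5 and LEF1, AXIN2, the negative feedback scaffold of the pathway, was higher in DLD1, at 8.83, 8.54 and 8.79 in HCT116 and 11.67, 11.68 and 11.78 in DLD1, 7.94-fold. BAMBI, a decoy receptor of the TGF-beta family and WNT target, was 4.28-fold higher there. With DKK1, VSNL1, a neuronal calcium sensor listed as a WNT target, was higher in HCT116 at 7.98-fold. The surface markers CD44 and PROM1 were 6.08- and 4.70-fold higher in HCT116, and CD44 read 12.84, 12.75 and 12.76 in HCT116 and 10.17, 10.06 and 10.31 in DLD1. MYC, a transcription factor downstream of WNT, differed less, with 11.93 ± 0.05 in HCT116 and 11.12 ± 0.04 in DLD1 (difference 0.81). The stem cell receptor LGR5 and the marker CD44 were thus high in opposite lines.

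Junction genes were mostly higher in DLD1. Of 44 measured, 24 were higher in DLD1 and 9 in HCT116, against 25.5% and 23.3% of all genes. At least 2-fold apart were 9 and 3, against 4.31% and 3.73%, and the median was -0.22. CDH1, encoding E-cadherin, read 10.88, 10.85 and 10.80 in HCT116 and 12.70, 12.72 and 12.66 in DLD1, so it was high on all arrays and 3.60-fold higher in DLD1. The tight junction gene CLDN1 was 5.61-fold, the epithelial factor GRHL3 9.08-fold and the splicing factor ESRP2 2.88-fold higher in DLD1. The desmosomal cadherins DSC3 and DSC2 went the other way, at 11- and 5.89-fold, and so did the tight junction adaptor TJP3 at 2.15-fold. Of 14 keratins 6 were higher in DLD1 and 3 in HCT116, against 25.5% and 23.3% of all genes. The largest differences were those of KRT80 (4.13-fold, DLD1), KRT20 and KRT23.

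Mesenchymal and contractile genes contained more large differences towards HCT116. Of 53 measured, 23 were higher in HCT116 and 12 in DLD1, against 23.3% and 25.5% of all genes. At least 2-fold apart were 12 and 4, against 3.73% and 4.31%. The median over the list was 0.05, or 0.89 with dim genes left out. MSN, which links actin to the membrane, read 11.27, 11.43 and 11.54 in HCT116 and 6.81, 6.67 and 6.66 in DLD1, a 26.0-fold difference. LGALS1, a secreted galectin, read 12.92, 12.97 and 12.92 in HCT116 and 9.38, 9.43 and 9.55 in DLD1, 11.2-fold higher in HCT116. The membrane protein EMP3 and the integrin activator FERMT2 were 11.4- and 11.4-fold higher. In the opposite direction TGFBI, a matrix protein induced by TGF-beta, read 6.87, 6.52 and 6.45 in HCT116 and 10.59, 10.62 and 10.57 in DLD1 and was 15.8-fold higher in DLD1, and the tropomyosin TPM1 was 5.93-fold higher there. VIM, the intermediate filament gene most used as a mesenchymal marker, read 6.65 ± 0.08 in HCT116 and 6.56 ± 0.10 in DLD1 and did not pass, and CDH2, encoding N-cadherin, was 1.66-fold higher in DLD1. Members with large differences were thus found in both directions, and VIM overlapped between the lines.

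**Figure D4:**
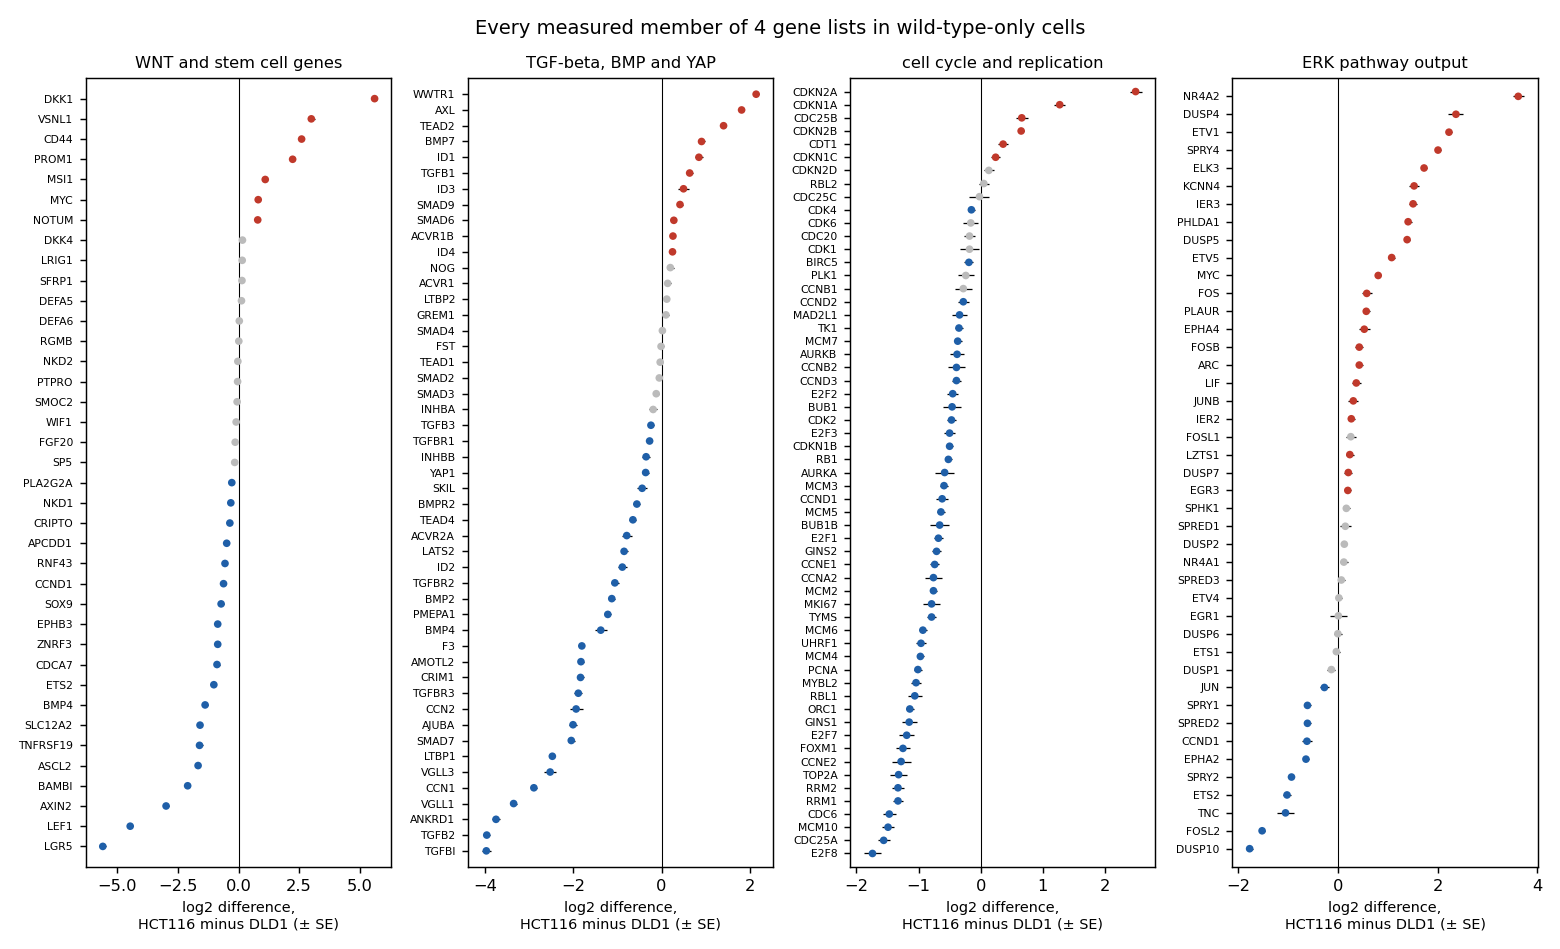
Difference in log2 level, HCT116 minus DLD1 in wild-type-only cells, for every measured member of 4 gene lists, 1 point per gene with its SE. Red points passed as higher in HCT116 and blue points as higher in DLD1, and grey points did not pass. In the TGF-beta, BMP and YAP pathway 18 members are at least 2-fold higher in DLD1 and 3 in HCT116, while the ERK pathway output has 10 at least 2-fold higher in HCT116 and 4 in DLD1.

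TGF-beta, BMP and YAP genes had 18 of 49 measured members at least 2-fold higher in DLD1, against 4.31% of all genes. In HCT116 3 were at least 2-fold higher, against 3.73%. In all 28 were higher in DLD1 and 11 in HCT116, against 25.5% and 23.3% of all genes. The median was -0.36, or -0.72 with dim genes left out. TGFB2, a ligand, read 6.23, 6.32 and 6.06 in HCT116 and 10.22, 10.00 and 10.29 in DLD1, 15.7-fold higher in DLD1. ANKRD1, a target of YAP, read 6.25, 6.04 and 6.22 in HCT116 and 10.05, 9.70 and 10.03 in DLD1, 13.5-fold higher there. The TEAD cofactor VGLL1 was 10.3-fold, the matricellular YAP targets CCN1 and CCN2 7.46- and 3.83-fold and the inhibitory SMAD gene SMAD7 4.15-fold higher in DLD1. WWTR1, encoding the YAP partner TAZ, was on the other side, with 9.97, 9.76 and 9.87 in HCT116 and 7.74, 7.64 and 7.77 in DLD1 and a 4.43-fold difference, as were TEAD2, a DNA-binding partner of both, at 2.67-fold and AXL, a receptor kinase listed as a YAP target, at 3.53-fold. The coactivator gene was thus higher in the line with lower CCN1, CCN2 and ANKRD1.

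Genes read as output of the ERK pathway were more often higher in HCT116. Of 43 measured, 22 were higher in HCT116 and 10 in DLD1, against 23.3% and 25.5% of all genes. At least 2-fold apart were 10 and 4, against 3.73% and 4.31%. The median of 0.21 was the highest of the 28 lists. With dim genes left out it was 0.26, below the 0.89 of the mesenchymal list. The feedback phosphatase DUSP4 read 9.80, 9.34 and 9.84 in HCT116 and 6.98, 7.28 and 7.62 in DLD1, 5.16-fold higher in HCT116. The immediate-early nuclear receptor NR4A2 was 12.3-fold, the ETS factor ETV1 4.68-fold and the feedback inhibitor SPRY4 4.03-fold higher in HCT116. DUSP10, a phosphatase that acts mainly on JNK and p38, and the AP-1 subunit FOSL2 were 3.41- and 2.88-fold higher in DLD1.

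Receptor tyrosine kinases and their ligands were about evenly divided. Of 60 measured, 22 were higher in HCT116 and 23 in DLD1, against 23.3% and 25.5% of all genes. KIT and its ligand lay in opposite lines: KITLG, encoding stem cell factor, read 12.19, 12.21 and 12.03 in HCT116 and 8.35, 8.22 and 8.02 in DLD1, 15.4-fold higher in HCT116. The ephrins EFNA5 and EFNB2 were 6.98- and 3.85-fold higher in DLD1. The receptors FGFR4 and AXL and the ligand FGF19 were 3.61-, 3.53- and 2.86-fold higher in HCT116. The related orphan receptors split, ROR2 being 3.08-fold higher in HCT116 and ROR1 2.66-fold higher in DLD1.

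Like most of the gene lists, components of the PI3K, AKT and mTOR pathway passed the test more often than all genes. Most of their differences were under 2-fold. Of 43 measured, 18 were higher in DLD1 and 12 in HCT116, together 69.8% against 48.8% of all genes. At least 2-fold apart were 2 and 3, together 11.6% against 8.04%. The median size of the difference was 0.4 over the list and 0.17 over all genes. Most other lists also exceeded all genes in both respects, so the excess was not particular to this pathway. The lists below 48.8% were enterocyte and goblet products (37.5%), cancer-testis and germline genes (15.2%), neural and neuroendocrine genes (47.6%) and proteasome subunits (42.9%). All genes include dim ones, and the share passing was not compared with dim genes left out. DEPTOR, an inhibitory partner of mTOR, read 8.89, 8.78 and 9.06 in HCT116 and 7.22, 7.03 and 7.13 in DLD1, 3.46-fold higher in HCT116. DDIT4L, a stress-induced inhibitor of mTORC1, and FOXO4, a transcription factor restrained by AKT, were 2.70- and 2.36-fold higher there. The class II kinase PIK3C2B, the AKT phosphatases PHLPP2 and PHLPP1 and the regulatory subunit PIK3R1 were 2.43-, 2.10-, 1.95- and 1.93-fold higher in DLD1. A second cluster of PHLPP1 differed by 0.01.

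Cell cycle and replication genes were higher in DLD1 almost throughout. Of 59 measured, 45 were higher in DLD1 and 6 in HCT116, against 25.5% and 23.3% of all genes, and 8 did not pass. The median of -0.58 was the lowest of the 28 lists. With dim genes left out it was -0.59. The intestinal factor, TGF-beta and WNT lists were then lower, at -1.10, -0.72 and -0.62. E2F8, an E2F family repressor of the S phase programme, read 7.96, 8.31 and 8.64 in HCT116 and 10.07, 10.14 and 9.91 in DLD1, 3.34-fold higher in DLD1. The phosphatase CDC25A and the origin factors MCM10 and CDC6 were 2.94-, 2.81- and 2.78-fold higher. Most members were thus moved by moderate amounts, with 15 of them at least 2-fold higher in DLD1, against 4.31% of all genes. Exceptions included both inhibitors and an activator of cyclin-dependent kinases. CDKN2A, an inhibitor, read 10.07, 10.28 and 10.31 in HCT116 and 7.70, 7.76 and 7.74 in DLD1, 5.61-fold higher in HCT116, and the inhibitors CDKN1A and CDKN2B were 2.41- and 1.57-fold higher. The activating phosphatase CDC25B was 1.58-fold higher in HCT116. Cell numbers and cell cycle phases were not analysed here.

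The p53 target genes included CDKN1A and had 20 of 48 members higher in HCT116 and 11 in DLD1, against 23.3% and 25.5% of all genes, with a median of 0.07, or 0.11 with dim genes left out. At least 2-fold apart were 3 and 1, or 8.33% of members against 8.04% of all genes. KITLG and TP53INP1, a stress-induced autophagy protein, were the largest at 15.4- and 10.1-fold. CDKN1A, encoding the kinase inhibitor p21, read 9.39, 9.26 and 9.35 in HCT116 and 8.03, 8.08 and 8.08 in DLD1, with no overlap. The metabolic regulator TIGAR and the apoptosome subunit APAF1 were 2.46- and 1.87-fold higher in DLD1. MDM2, the ubiquitin ligase of p53, read 11.15 ± 0.05 in HCT116 and 10.97 ± 0.12 in DLD1 and differed by 0.19, and the pro-apoptotic BAX (10.25 ± 0.04 in HCT116 and 10.25 ± 0.05 in DLD1) and FAS (8.73 ± 0.17 in HCT116 and 8.74 ± 0.05 in DLD1) did not pass. The median of these genes in mutant-only cells was 0.35.

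DNA mismatch repair and damage tolerance genes were mostly higher in DLD1, with a median of -0.44. Of 40 measured, 27 were higher in DLD1 and 6 in HCT116, against 25.5% and 23.3% of all genes. MSH3, which recognises insertion and deletion loops, read 8.26, 8.57 and 8.47 in HCT116 and 10.35, 10.42 and 10.37 in DLD1, 3.85-fold higher in DLD1. EXO1, the exonuclease of the pathway, was 3.05-fold higher there, and the cytidine deaminases APOBEC3B and APOBEC3G 3.99- and 4.05-fold. MSH6, which recognises mismatches, went the other way at 2.07-fold. HLTF, a translocase that remodels stalled replication forks, read 10.61, 10.61 and 10.74 in HCT116 and 6.43, 6.43 and 6.69 in DLD1, a 17.6-fold difference towards HCT116. Of 48 apoptosis regulators 18 were higher in DLD1 and 9 in HCT116, against 25.5% and 23.3% of all genes. The kinase DAPK1 was 5.81-fold higher in DLD1 and the pore-forming gasdermin GSDME 5.04-fold higher in HCT116.

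Interferon-stimulated genes did not move as a block. Of 52 measured, 21 were higher in DLD1 and 15 in HCT116, against 25.5% and 23.3% of all genes, and the median was -0.07, or -0.15 with dim genes left out. OAS1, the double-stranded RNA sensor, read 7.35, 7.61 and 7.34 in HCT116 and 9.77, 9.70 and 9.79 in DLD1, 4.99-fold higher in DLD1. The guanylate-binding protein GBP3, the antiviral GTPase MX2 and the RNA receptor TLR3 were 5.25-, 4.43- and 3.90-fold higher in DLD1. IFI35 and the membrane restriction factor IFITM1 were 3.88- and 3.60-fold higher in HCT116. In antigen presentation 11 of 29 genes were higher in HCT116 and 10 in DLD1, against 23.3% and 25.5% of all genes. B2M, the light chain of class I HLA, read 11.22, 11.49 and 11.03 in HCT116 and 9.12, 9.19 and 8.56 in DLD1, 4.88-fold higher in HCT116, while the peptide trimmer ERAP2 was 10.4-fold, the chaperone relative TAPBPL 3.82-fold and the immunoproteasome subunit PSMB8 3.12-fold higher in DLD1. The class II genes HLA-DPA1 and HLA-DPB1, 2.66- and 2.75-fold higher in HCT116, are polymorphic and probes may bind their alleles unequally.

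Of 56 measured chemokine, cytokine and NF-kB target genes, 21 were higher in DLD1 and 13 in HCT116, against 25.5% and 23.3% of all genes. With OSMR, LIFR, which shares a ligand and the signalling partner gp130, read 8.68, 8.84 and 8.94 in HCT116 and 5.53, 5.52 and 5.49 in DLD1, 9.91-fold higher in HCT116, and so was the homing receptor GPR15 at 12.4-fold. The TNF family ligand TNFSF15, the mucosal chemokine CCL28, the neutrophil chemokine CXCL5 and the alarmin IL33 were 7.43-, 7.31-, 3.94- and 3.95-fold higher in DLD1. For each of these genes all 3 DLD1 arrays lay above all 3 HCT116 arrays.

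Glycolysis and hypoxia target genes had 15 of 42 members higher in HCT116 and 16 in DLD1, against 23.3% and 25.5% of all genes. At least 2-fold apart were 6 and 2, against 3.73% and 4.31%. The glucose transporters SLC2A3 and SLC2A1 were 6.82- and 3.92-fold higher in DLD1, and so were the hexokinase HK2 at 1.86-fold and the collagen prolyl hydroxylase P4HA2 at 1.81-fold. The aldolase ALDOC, at 10.94, 10.99 and 10.78 in HCT116 and 7.55, 7.48 and 7.47 in DLD1, was 10.6-fold higher in HCT116 together with BNIP3, NDRG1 (3.05-fold) and the peptide hormone ADM (2.77-fold). Genes of amino acid supply and the ATF4 response had a median of -0.31. Of 56 measured, 35 were higher in DLD1 and 9 in HCT116, against 25.5% and 23.3% of all genes. The transporters SLC1A4, SLC7A8 and SLC7A7 were 7.01-, 6.40- and 5.04-fold higher and the ATF4 target TRIB3 2.96-fold higher, whereas the glutamine transporter SLC38A5 was 5.71-fold higher in HCT116. In sterol and fatty acid synthesis, 21 of 40 were higher in DLD1 and 10 in HCT116, against 25.5% and 23.3% of all genes. The mevalonate genes HMGCS1 and FDPS were 3.96- and 2.09-fold higher in DLD1, and the polyunsaturated fatty acid genes ELOVL5 and FADS1, a desaturase, were higher in HCT116, FADS1 by 5.30-fold.

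Of 88 xenobiotic and aldehyde metabolism genes 24 were higher in HCT116 and 25 in DLD1, near the shares of 23.3% and 25.5% over all genes, while 4 and 10 were at least 2-fold apart, against 3.73% and 4.31%. ABCC2, an export pump for conjugates, read 10.89, 11.37 and 11.13 in HCT116 and 7.12, 6.98 and 7.09 in DLD1, 16.8-fold higher in HCT116. GSTM3, a glutathione transferase, read 5.80, 5.41 and 5.45 in HCT116 and 9.68, 9.66 and 9.86 in DLD1, 18.2-fold higher in DLD1, with the uptake carrier SLCO1B3 at 7.99-fold, the epoxygenase CYP2J2 at 7.29-fold and GSTT1 at 4.70-fold. ALDH1A3, a retinaldehyde dehydrogenase, was 7.36-fold higher in HCT116 on the cluster used, though its other cluster differed by 0.09. Glycosyltransferases had 12 of 59 members at least 2-fold higher in HCT116 and 6 in DLD1, against 3.73% and 4.31% of all genes. The sialyltransferases ST6GAL1, at 9.21, 9.32 and 9.51 in HCT116 and 6.51, 6.27 and 6.21 in DLD1, and ST3GAL6 were 8.10- and 8.77-fold higher in HCT116, with the sulphotransferase CHST15 at 5.92-fold. The branching enzyme MGAT4A and the mucin-type initiators GALNT3 and GALNT6 were 3.90-, 2.95- and 2.93-fold higher in DLD1.

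Proteases and their inhibitors showed the plasminogen activators on the HCT116 side. PLAT and PLAU, encoding tissue-type and urokinase-type activators, were 10.3- and 4.55-fold higher in HCT116, PLAT reading 11.46, 10.83 and 10.86 in HCT116 and 7.64, 7.57 and 7.85 in DLD1. The metalloprotease ADAM19 was 7-fold higher there. The serine protease PRSS23, the inhibitor SLPI and the coagulation initiator F3 were 13.1-, 5.97- and 3.51-fold higher in DLD1. Over the list of 54 genes 15 were higher in HCT116 and 16 in DLD1, near the 23.3% and 25.5% of all genes. Large differences were more frequent than over all genes, with 6 and 8 at least 2-fold apart, together 25.9% against 8.04%. Among integrins and laminins, 16 of 34 were higher in DLD1 and 11 in HCT116, against 25.5% and 23.3% of all genes. ITGB6, which pairs with the alpha v chain, led those higher in DLD1 at 4.16-fold. Of 63 neural and neuroendocrine genes 17 were higher in HCT116 and 13 in DLD1, which is near the background. Again large differences were more frequent, with 7 and 6 at least 2-fold apart, together 20.6% against 8.04% of all genes. With SYT1, the granule protein SCG2 read 10.16, 10.32 and 10.42 in HCT116 and 6.47, 6.47 and 6.65 in DLD1, 13.6-fold higher in HCT116, and the adhesion proteins TENM3 and NRP1 were 11.1- and 6.07-fold higher in DLD1.

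HOX genes keep positional identity along the body axis. Of 27 measured, 12 were higher in DLD1 and 6 in HCT116, against 25.5% and 23.3% of all genes. HOXB9 read 9.55, 9.27 and 9.48 in HCT116 and 11.78, 11.87 and 11.95 in DLD1, 5.41-fold higher in DLD1, and HOXB3, HOXD10 and HOXA2 were 4.92-, 4.08- and 4.06-fold higher, while HOXC9 was 2.41-fold higher in HCT116. Of 46 cancer-testis and germline genes 39 did not pass, and 15.2% passed against 48.8% of all genes. The median size of the difference was 0.06 over this list and 0.17 over all genes. Some of its called members lay under the 10th percentile of gene levels in both lines. Signal over background was not assessed, so genes silent in both lines cannot be told from genes expressed equally. MAGEB2 and PRAME, an antigen of tumours and testis, were the members at least 2-fold apart, at 32.8- and 5.85-fold higher in HCT116, and GTSF1 was not on that list. Proteasome subunits stayed close together: 10 of 28 were higher in DLD1 and 2 in HCT116, against 25.5% and 23.3% of all genes. At least 2-fold apart were 0, against 8.04%, and PSMD6 was the largest at 1.61-fold.

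The mutant-only arrays of the same lines gave a second comparison of the lines, on separate arrays. In it HCT116 kept H1047R alone and DLD1 kept E545K alone, so line and mutation cannot be told apart there. Its differences are still called line differences below. There 9305 genes passed, and 7421 passed in both genotypes in the same direction against 88 in opposite directions. Of the 1477 genes at least 2-fold apart in wild-type-only cells, 1461 passed in the same direction in mutant-only cells, 5 in the opposite direction and 11 did not pass. The 2-fold genes shared in the same direction, 1178, were 79.8% of the wild-type-only list and 78.4% of the 1503 of the mutant-only list. Across all genes the differences correlated by 0.94 (Pearson), a description, since genes are not independent replicates and derivatives of one parental line share its genome. DKK1 differed by 5.66 in mutant-only cells, GTSF1 by 6.70, OLR1 by -6.73 and LGR5 by -5.65, close to the wild-type-only values. The cell cycle list had a median of -0.59 in mutant-only cells and the ERK output list 0.21.

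**Figure D5:**
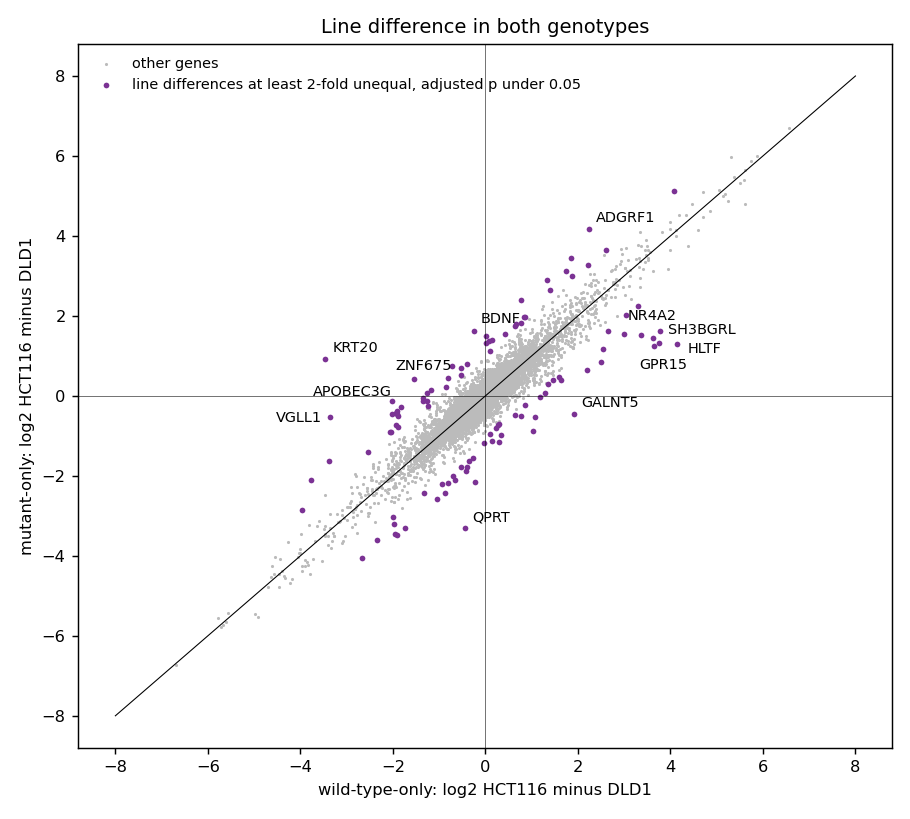
Log2 difference HCT116 minus DLD1 for every gene in wild-type-only cells (horizontal axis) against mutant-only cells (vertical axis), with the line of equality. Purple points are the 105 genes whose line difference changed by at least 2-fold between genotypes with an adjusted p of 0.05, and KRT20 lies furthest from the line.

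A test of the difference between those line differences passed for 1307 genes (7.11% of all genes, limma with Benjamini-Hochberg adjustment), of which 105 by at least 2-fold. With the replicate number as a block 2120 passed. Among the 1477 genes at least 2-fold apart in wild-type-only cells 356 passed (24.1%), 64 by at least 2-fold. KRT20 was the extreme. In wild-type-only cells it differed by -3.46, and in mutant-only cells, at 7.72, 7.59 and 7.75 in HCT116 and 6.65, 6.75 and 6.93 in DLD1, by 0.91, so the line with more KRT20 was not the same one. The change of the difference was -4.37 (limma adjusted p = 2.2e-11). The TEAD cofactor VGLL1 (-3.36 against -0.53), the zinc finger gene ZNF675 (-1.55 against 0.42) and the deaminase APOBEC3G (-2.02 against -0.13) were further towards DLD1 in wild-type-only cells. ADGRF1, an adhesion receptor, was further towards HCT116 in mutant-only cells (2.23 against 4.17), and so was BDNF, a neurotrophin (-0.25 against 1.63).

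In the other direction HLTF differed by 4.14 in wild-type-only and 1.30 in mutant-only cells, a change of 2.83 (limma adjusted p = 4.68e-08). On the mutant-only arrays it read 10.65, 10.78 and 10.71 in HCT116 and 9.32, 9.30 and 9.62 in DLD1. SH3BGRL, a small thioredoxin-fold protein, differed by 3.76 in wild-type-only and 1.33 in mutant-only cells, GPR15 by 3.64 and 1.25 and NR4A2 by 3.62 and 1.45. GALNT5, which starts mucin-type glycans, was higher in HCT116 among wild-type-only cells (1.91) and higher in DLD1 among mutant-only cells (-0.45). QPRT, an enzyme of NAD synthesis, differed by -0.45 in wild-type-only cells, a call lost with array weights or without HCT116 replicate 2, HCT116 replicate 3 or DLD1 replicate 3 (-0.28 to -0.38), and by -3.31 in mutant-only cells. BDNF's own wild-type-only difference was lost without HCT116 replicate 3 or DLD1 replicate 1 or 3, at -0.18 to -0.23. The cell cycle list contributed 2 genes to the calls on changed differences and the TGF-beta, BMP and YAP list 15 of its 49.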

How the data were processed

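RNA of 12 samples was measured on 1-colour arrays. The authors deposited a table of 28869 transcript clusters by array, and its values are log2 expression levels. How background was corrected and arrays were normalized is not given in the sources used here. Precision is limited by the number of arrays, and signal over background was not assessed. The authors' deposited comparison tables were not used here, and 0 further sample columns were present. Groups came from the sample titles.

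Clusters with 1 gene symbol in the platform annotation (19310) were kept, and those with several (1752) or none (7807) were left out. For 685 genes with more than 1 cluster the one with the highest mean over the 12 arrays was used, which left 18377 genes, of which 18349 matched NCBI's gene table for GRCh38.p14, used for names and gene order. The targeted gene's own transcript was not analysed here. Promoter windows and their coordinates are RefSeq's on GRCh38.p14.

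Means of the 4 groups were fitted to all 12 arrays by lmFit and eBayes of limma 3.58.1 (R 4.3.3), with 8 residual and 5.17 prior degrees of freedom. Tests were two-sided, with Benjamini-Hochberg adjustment across the 18377 genes. A gene was called at an adjusted p under 0.05. The script was tested on simulated data. An exact permutation test of 3 against 3 arrays cannot go below 0.1 and was not used. The members and the 28 gene lists (1409 distinct genes, 1260 measured) were chosen with earlier results of these data known, and no list was tested as a set. The text names from the 15 largest non-overlapping differences in each direction, up to 4 called members per list and direction, the 6 highest and 6 lowest changes of the line difference, the runs of at least 4 neighbours and the tissue markers. BAX, CCN1, CCN2, CDH2, FAS, HBD, MDM2, MYC, SMAD7 and VIM were chosen as examples once values were known.

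The labels number the replicates in every group. Deviations of same-numbered wild-type-only arrays of the lines from their group means correlated by 0.114, 0.399 and 0.283. Those of different numbers correlated by -0.413 to 0.114, so the arrays may be paired by number. The p-values, SEs and counts come from the fit without that number unless stated. With it as a block (6 residual degrees of freedom) 9786 genes passed in place of 8962. Other counts from the block fit are given where they moved by over 1.5 times. Alternatives were the mean of a gene's clusters, genes under the 40th percentile left out, quantile normalization, median centring, an intensity trend, array weights, the wild-type-only arrays alone, a minimum fold of 1.2 inside the test and each array left out.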

Additional observations from a re-analysis of the deposited data

Results flagged for a closer look

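The line difference itself was tested for a change between genotypes in every gene, and 63 of the 200 genes described above passed (limma, Benjamini-Hochberg adjusted over all genes), against 7.11% of all genes and 24.1% of those at least 2-fold apart in wild-type-only cells. The 200 include the 6 highest and 6 lowest changes, named for that change, so the count partly reflects how they were chosen. In 24 of them the line difference changed by at least 2-fold; values here are the wild-type-only difference minus the mutant-only difference on the log2 scale. Genes whose difference lay further towards DLD1 in wild-type-only cells were KRT20 (-4.37), the TEAD cofactor VGLL1 (-2.83), ZNF675 (-1.98), ADGRF1 (-1.94), BDNF (-1.88), APOBEC3G (-1.88), the ETS factor EHF (-1.76), the YAP target ANKRD1 (-1.65) and HOXD10 (-1.57). The same held for EFNB2 (-1.22), ITGB6 (-1.15), DAPK1 (-1.12), CD44 (-1.05) and ABCC2 (-1.05). Genes whose difference lay further towards HCT116 in wild-type-only cells were QPRT (2.86), HLTF (2.83), SH3BGRL (2.43), GPR15 (2.39), GALNT5 (2.36), NR4A2 (2.17), SCG2 (2.14), the plasminogen activator gene PLAT (1.84), VSNL1 (1.44) and CXCL5 (1.23). The other 39 changed by 0.28 to 0.99, and all 39 kept the sign of their line difference in both genotypes.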

How the results depend on the processing

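The count of 8962 called genes ranged from 7335 with dim genes left out, which tested fewer genes, to 9954 with array weights, and the 1477 genes at least 2-fold apart stayed within 1.5 times under every alternative run. Leaving out single arrays gave 8131 to 8838 called genes and 1427 to 1518 at least 2-fold apart. The count of changed line differences was the least stable: 1307 became 2120 with the replicate block and 2189 with array weights, where DLD1 wild-type-only replicate 1 took a weight of 6.23, and 955 to 1186 without single arrays; the cause was not tested. No other count of calls moved by over 1.5 times with the replicate block. For 272 genes under the alternatives 3695 of 3739 values kept their side of the threshold, 38 lost the call and 6 gained it. No value that passed in either fit reversed its direction, and values that passed in neither were not checked for direction. EPCAM's small difference (-0.24) lost its call without HCT116 replicate 2 or 3 or DLD1 replicate 1 or 2, at -0.19 to -0.23. Over the list medians 11 values moved beyond their spread, 10 of them with dim genes left out, where the median of the intestinal factors was -1.10 and that of the mesenchymal genes 0.89. Signal over background was not assessed, so how far dim signal limits single genes was not tested.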
